A study of Mus musculus with 4 samples.

Results

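The genes described here encode splicing factors and the RNA-binding proteins that direct splicing in neurons. They were taken by gene name: core proteins of the small nuclear ribonucleoproteins (Snrp), subunits of splicing factor 3 (Sf3a and Sf3b), pre-mRNA processing factors (Prpf), SR proteins (Srsf), heterogeneous nuclear ribonucleoproteins (Hnrnp), and the Rbfox, Celf, Elavl, Nova, Ptbp and Mbnl families. Of 86 symbols that matched the name pattern, 1 was left out by name, and 84 of the remaining 85 had at least 10 counts in at least 2 libraries. These 84 genes, out of 32531 gene names in the count tables, are the members. The gene just outside the minimum, Hnrnpa1l2, had 0 and 0 counts in the IP libraries, against 1 and 0 in the input libraries. The member just inside it, Mbnl3, had 8 and 21 counts in IP, against 30 and 26 in input. No member met the minimum through 1 group alone, 83 had at least 10 counts in all 4 libraries, and all 84 entered the test.

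The libraries came from cerebral cortex of adult mice of the Cbln1-EGFP/Rpl10a line NIDA030, in which the ribosomal protein Rpl10a carries an EGFP tag in cells where the Cbln1-driven transgene is active. Translating ribosome affinity purification (TRAP) captures tagged polysomes with antibodies to EGFP, so that the RNA on the ribosomes of these cells can be set against the RNA of the tissue. The 2 IP libraries held ribosome-bound RNA from the capture, and the 2 input libraries held RNA of the cortex before it, which includes RNA of the tagged cells. Both groups carry the transgene, and replicates are numbered 2 and 4 in each group. The labels do not say whether replicates came from separate animals or pools, so the p-values rest on a spread between libraries that may be only technical. The comparison of IP with input asks which transcripts are relatively more or less abundant on the captured ribosomes than in whole cortex. A difference can reflect which cells carry the tag, the amount of the RNA per cell or the share of it on ribosomes, and these cannot be told apart here.

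Splicing removes introns in a cycle of assembly steps. The U1 particle marks the start of the intron, the U2 particle with splicing factor 3 settles on the branch point, and the tri-snRNP of U4, U6 and U5 joins before the Prp19 complex helps to activate the spliceosome. SR proteins bind mainly to exons and favour their inclusion, whereas many hnRNP proteins favour skipping and also package, export and localise RNA. In neurons, Rbfox, Celf, Elavl, Nova, Ptbp and Mbnl proteins set which exons of synaptic, channel and cytoskeletal genes are used, and several of them also bind 3′ ends of mRNAs in the cytoplasm. Many genes of SR and hnRNP proteins hold so-called poison exons, alternative exons that send their own transcripts to nonsense-mediated decay (NMD).

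Promoters of Srsf11, Prpf19 and Hnrnpa2b1, the genes with the largest differences in the SR, Prpf and Hnrnp families, and of Srsf6, another SR gene that was lower in IP, are shown here from RefSeq (GRCm38.p6), each as the 250 bases before and 50 bases from the annotated start, written 5′ to 3′ along the gene. Srsf11 and Srsf6 were lower in IP, whereas Prpf19 and Hnrnpa2b1 were higher. Capitals mark matches on either strand to CCGGAAG, the core recognised by ETS factors such as GABP, to CCAAT, the box bound by NF-Y, or to TATAAA. None of these motifs contains another. The Srsf11 window lies at chr3:158036557-158036856 on the minus strand, the Srsf6 window at chr2:162931258-162931557 on the plus strand, the Prpf19 window at chr19:10894981-10895280 on the plus strand, and the Hnrnpa2b1 window at chr6:51469845-51470144 on the minus strand.
Srsf11: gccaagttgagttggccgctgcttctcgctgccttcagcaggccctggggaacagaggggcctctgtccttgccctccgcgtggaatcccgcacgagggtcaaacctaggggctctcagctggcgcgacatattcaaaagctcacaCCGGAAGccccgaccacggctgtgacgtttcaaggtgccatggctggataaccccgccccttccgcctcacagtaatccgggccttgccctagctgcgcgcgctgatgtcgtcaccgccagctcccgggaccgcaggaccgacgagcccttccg
Srsf6: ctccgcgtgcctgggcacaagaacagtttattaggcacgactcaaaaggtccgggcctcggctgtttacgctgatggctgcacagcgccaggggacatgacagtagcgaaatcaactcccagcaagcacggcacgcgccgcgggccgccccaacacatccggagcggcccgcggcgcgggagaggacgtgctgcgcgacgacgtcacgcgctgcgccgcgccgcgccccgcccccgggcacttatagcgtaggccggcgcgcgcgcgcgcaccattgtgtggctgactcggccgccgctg
Prpf19: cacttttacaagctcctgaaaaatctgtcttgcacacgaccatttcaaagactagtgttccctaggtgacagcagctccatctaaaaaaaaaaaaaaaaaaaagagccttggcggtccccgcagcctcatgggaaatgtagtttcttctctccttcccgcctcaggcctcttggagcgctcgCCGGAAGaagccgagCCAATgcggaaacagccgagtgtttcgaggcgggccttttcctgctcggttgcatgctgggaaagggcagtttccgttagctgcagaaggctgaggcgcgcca
Hnrnpa2b1: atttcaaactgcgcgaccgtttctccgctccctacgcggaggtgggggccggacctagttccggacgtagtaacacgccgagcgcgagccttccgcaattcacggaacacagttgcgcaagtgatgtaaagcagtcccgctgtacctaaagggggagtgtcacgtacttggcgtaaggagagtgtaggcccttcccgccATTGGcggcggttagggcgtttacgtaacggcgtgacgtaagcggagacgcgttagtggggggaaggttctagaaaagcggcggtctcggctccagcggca

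The Srsf11 window holds CCGGAAG once, the Prpf19 window holds CCGGAAG and CCAAT, the Hnrnpa2b1 window holds CCAAT on the opposite strand, and the Srsf6 window holds none of the motifs. RefSeq windows were found for 73 of the 84 members, 115 windows in all. CCGGAAG was present in 6 of 14 windows of Srsf genes (42.9%), in 4 of 10 windows of Snrp genes (40.0%), in 14.8% of Hnrnp windows, in 21.7% of all member windows and in 8.86% of all 32851 windows of the same length. CCAAT was present in 17 of 27 windows of Hnrnp genes (63.0%), in 28.6% of Srsf windows, in 47.8% of member windows and in 37.4% of all windows. TATAAA was found in 14.3% of Srsf windows, 9.57% of member windows and 13.6% of all windows. Several windows belong to the same gene and overlap, and a match describes letters, not binding.

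Gene counts summed to 41334423 and 47567384 in the IP libraries, against 41385301 and 39750468 in the input libraries. Replicates differed by more than sampling noise. Both IP libraries carry lane 1 in their descriptions and both input libraries lane 2, so a lane difference and a group difference cannot be told apart. Cbln1, the gene whose regulatory region drives the transgene, had 99.3 and 68.7 CPM (counts scaled to library size, with TMM factors) in IP, against 11.9 and 8.55 CPM in input, an 8.19-fold difference (edgeR adjusted p = 1.39e-10). Of 11 neuronal markers 8 were higher in IP and 0 lower, and Gad1, Gad2 and Slc32a1 did not pass. The summed level of the 11 was 33528 and 31647 CPM in IP, against 14283 and 14832 CPM in input. Most of that neuronal sum is Snap25, at 27045.9 and 25461.3 CPM in IP, against 10530.5 and 10911.7 CPM in input. Of 7 astrocyte markers 3 were higher and 2 lower (1014 and 1112 CPM in IP, 780 and 765 CPM in input). Most of that astrocyte sum is Aldoc, at 708 and 782 CPM in IP, against 434 and 415 CPM in input, whereas Aqp4 and S100b were lower. Of 7 oligodendrocyte markers, 2 were higher and 5 lower (1240 and 1269 CPM in IP, 1617 and 1520 CPM in input). Of 5 oligodendrocyte precursor markers 1 was higher and 1 lower (127 and 159 CPM in IP, 153 and 143 CPM in input), and of 6 microglial markers 1 was higher and 2 lower (38.8 and 43.7 CPM in IP, 42.7 and 39.1 CPM in input). None of 5 endothelial markers passed the test (5.34 and 5.62 CPM in IP, 8.19 and 5.82 CPM in input). The part that these differences in cell markers play in the results on splicing factors was not tested.

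Families of splicing factors had median log2 fold changes of opposite sign under TMM scaling. The hnRNP median was near 0 under library sizes alone. All 11 SR protein genes had negative log2 fold changes, 7 of them past the threshold. Of 4 Elavl genes 3 were higher, as were 9 of 20 hnRNP genes (45%, and 4 genes with library sizes alone), and no Rbfox gene passed. Of all genes tested between 50 and 500 CPM, 43.9% were higher and 21.0% lower. With edgeR's quasi-likelihood test and Benjamini-Hochberg adjustment over all 16600 genes tested, 25 members were higher in IP and 14 were lower at an adjusted p under 0.05, and 45 did not pass. The higher members were 29.8% of the 84, beside 23.4% of all genes tested, and the lower members were 16.7%, beside 22.4% of all genes. In either direction 46.4% of members passed, beside 45.8% of all genes. At least 2-fold differences past the threshold were seen in 2 members (2.38%), Prpf19 and Hnrnpa2b1, both higher, and in 14.4% of all genes. The log2 fold changes of IP over input ranged from -0.98 for Srsf11 to 1.20 for Prpf19, with a median of 0.15 in the members and -0.04 in all genes tested. The latter includes many genes of low level, whereas few members are that low. Once genes averaging under 5 CPM were set aside, the median of all genes was 0.12, and between 50 and 500 CPM it was 0.18. The members' median lay between these values, so it did not stand above that of genes at similar levels.

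The share of genes that were higher in IP was larger among well-expressed genes, and most members are well expressed. Among genes whose mean reached 5 CPM, 34.3% were higher, 20.5% lower and 54.8% either, beside 31.6%, 17.7% and 49.4% of the 79 members at that level. Between 50 and 500 CPM, 43.9% of genes were higher, 21.0% lower and 64.9% either, beside 32.5%, 15% and 47.5% of 40 members. The differences between these shares were not tested. The IP libraries both exceeded the input libraries in 41 members (48.8%, beside 35.3% of all genes) and lay below them in 29 (34.5%, beside 37.8%). The groups did not overlap in 83.3% of members, beside 73.0% of all genes.

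**Figure D1:**
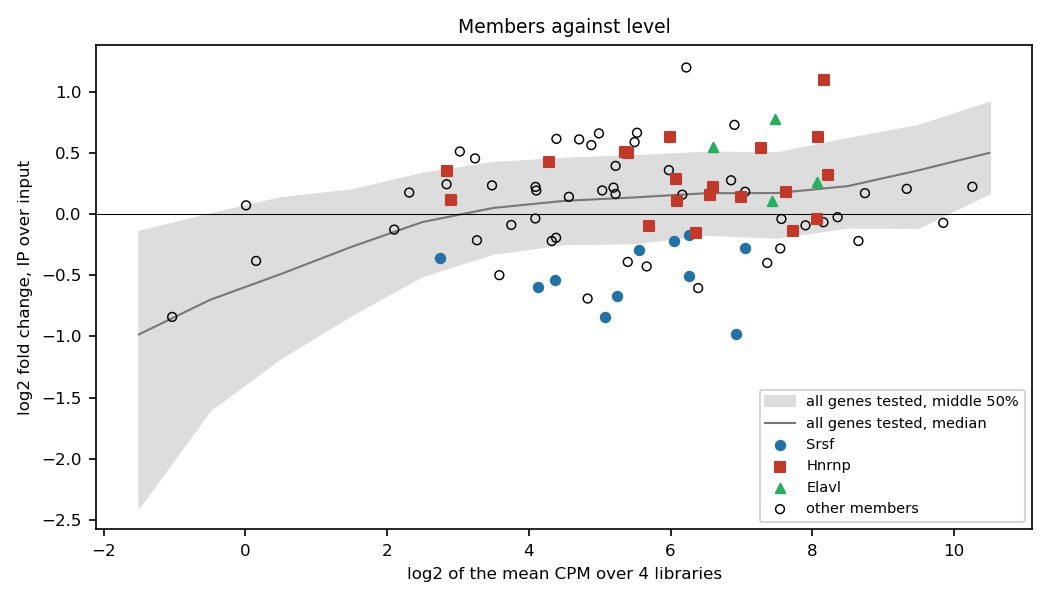
Log2 fold change of IP over input (vertical axis) against log2 of the mean CPM over the 4 libraries (horizontal axis) for the 84 members, with the median and middle 50% of all 16600 genes tested as a line and a grey band. Blue circles are Srsf genes, all below the line at their level. Red squares are Hnrnp genes, green triangles Elavl genes and open circles the other members.

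The scaling of the libraries set where zero lies. With library sizes alone in place of TMM, the median log2 fold change of all genes shifted by -0.26, 13 members were higher and 31 lower, and the members' median was -0.11. With the test and TMM restricted to genes of at least 5 CPM, 16 members were higher and 22 lower, and the members' median was 0.04. The median of the 10702 genes tested in both fits shifted by -0.13, from 0.12 to -0.005. Less these shifts, the members' median was 0.15 and 0.16. A scaling moves every gene by about the same amount, so this return to the main value was fixed in advance and is no check of it. Of the 39 members past the threshold, 19 passed in the same direction under all 12 alternatives. The 13 higher among them were Elavl2, Elavl4, Hnrnpa0, Hnrnpa2b1, Hnrnpab, Hnrnpm, Prpf19, Prpf31, Prpf4b, Sf3a3, Sf3b3, Snrpb and Snrpb2, and the lower ones included Nova1, Srsf6, Srsf7, Srsf11 and Srsf12.

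**Figure D2:**
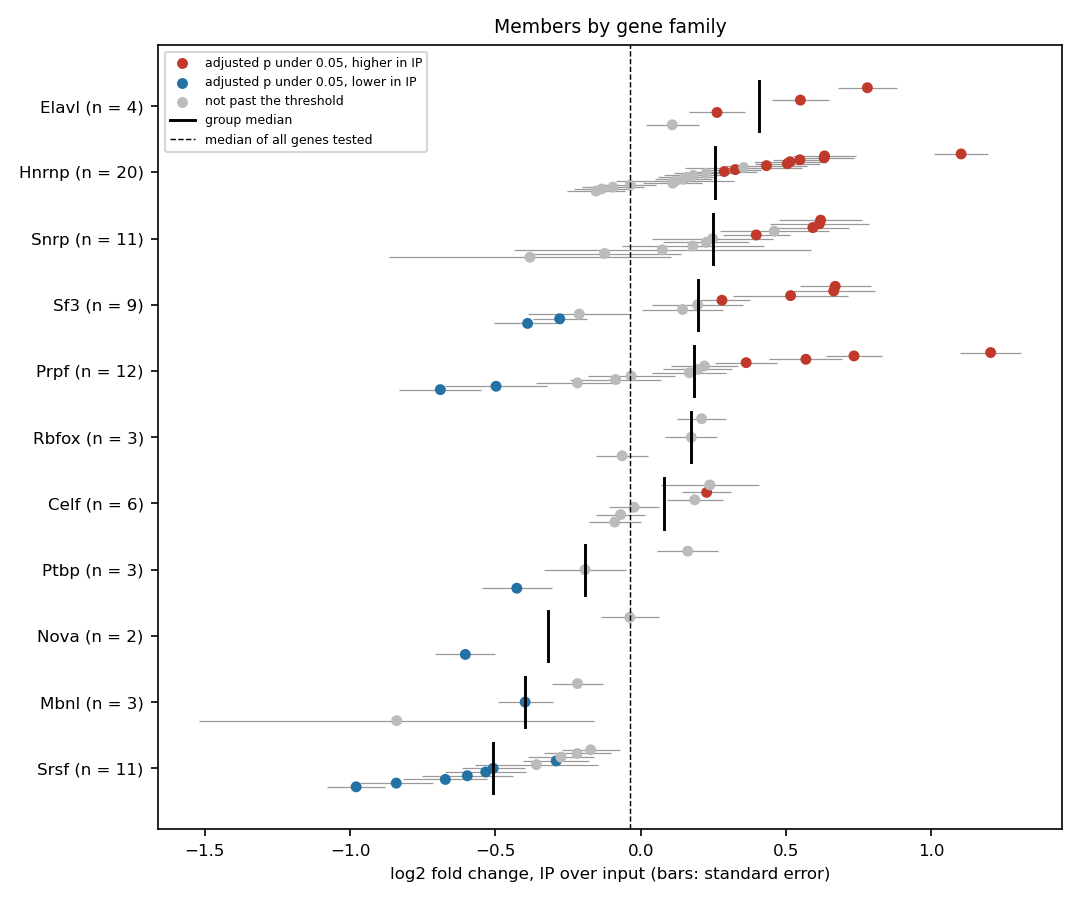
Log2 fold change of IP over input (horizontal axis) for each member, by gene family, with bars for the standard error, colour for the edgeR call, a black line at the family median and a dashed line at the median of all genes tested (-0.04). Under TMM scaling the Srsf median is -0.51 and the Elavl median 0.41, and these families kept a negative and a positive median under every alternative, whereas the medians of Snrp, Sf3, Prpf, Rbfox, Celf and Hnrnp turned below 0 with library sizes alone, that of Celf also with genes of at least 5 CPM only and that of Rbfox also with a correction for GC content and length.

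The Sm proteins form a ring around most spliceosomal snRNAs, and further Snrp proteins bind only the U1 or U2 particle. Of 11 Snrp genes, 4 were higher in IP (36.4%) and 0 lower. Of all genes tested 23.4% were higher, and of those with at least 5 CPM 34.3%. The Snrp genes had a median log2 fold change of 0.25 that became -0.01 with library sizes alone. Their summed level was 212 and 193 CPM in IP, against 160 and 134 CPM in input. Snrpb, which encodes the SmB and SmB′ proteins, had 26.9 and 23.9 CPM in IP, against 17.6 and 15.4 CPM in input, so the groups did not overlap (log2 fold change 0.62, SE 0.14, edgeR adjusted p = 0.00148). Snrpd1, the SmD1 subunit, had 34.7 and 28.7 CPM in IP, against 25.1 and 16.2 CPM in input, where the replicates stood apart from each other. Its log2 fold change was 0.61 (SE 0.17, edgeR adjusted p = 0.00594), but without input 4 it was 0.34 and did not pass, as with library sizes alone, and without input 2 it was 0.97. Snrpb2, a protein of the U2 particle, had 58.3 and 50.1 CPM in IP, against 39.4 and 32.4 CPM in input (log2 fold change 0.59, SE 0.13, edgeR adjusted p = 0.000744).

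The fourth gene of this family to pass was Snrpa, the A protein of the U1 particle, at 43.1 and 41.9 CPM in IP, against 31.8 and 32.7 CPM in input (log2 fold change 0.40, edgeR adjusted p = 0.00869), which no longer passed with library sizes alone, with genes of at least 5 CPM only or with a correction for GC content and length. Snrpd2, the SmD2 subunit, had 11.9 and 9.97 CPM in IP, against 8.67 and 7.26 CPM in input, and did not pass (edgeR adjusted p = 0.0523), though it did with no filter on low counts, without IP 4 and without input 2. Snrpc, Snrpe, Snrpf and Snrpg had between 0.833 and 5.45 CPM in every library, and none of them passed. Reads of 7 Snrp genes can be shared with near-identical transcripts of other genes (at least 95% identity over at least 100 bases), and the files give no gene to a read with several alignments. Their levels, and the comparison where a copy is expressed, are uncertain to that extent.

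Splicing factor 3 binds the branch point within the U2 particle, and its subunits did not move as 1 block. Of 9 genes, 4 were higher in IP (44.4%) and 2 lower (22.2%), beside 34.3% and 20.5% of all genes with at least 5 CPM. The 9 genes had a median of 0.20 (-0.06 with library sizes alone). Their summed level was 483 and 497 CPM in IP, against 476 and 471 CPM in input. Sf3b3, a large scaffold subunit, had 51.5 and 61.8 CPM in IP, against 38.1 and 33.1 CPM in input (log2 fold change 0.67, SE 0.12, edgeR adjusted p = 0.000196). Sf3a3 had 34.1 and 43.8 CPM in IP, against 26.9 and 22.3 CPM in input (log2 fold change 0.66, SE 0.14, edgeR adjusted p = 0.000794). Both IP libraries exceeded both input libraries in these genes. Sf3a2 had 8.45 and 10.7 CPM in IP, against 6.36 and 7.07 CPM in input (log2 fold change 0.52, SE 0.20, edgeR adjusted p = 0.0399), a call lost under 8 of the 12 alternatives, with 0.34 without IP 4. Sf3b2 was also higher (0.28, edgeR adjusted p = 0.0251), a call lost under 6 alternatives.

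The subunit that clamps the branch point helix went the other way. Sf3b1, which is mutated in several blood cancers in humans, had 163 and 176 CPM in IP, against 200 and 210 CPM in input, a mean of 169 ± 9.23 CPM and 205 ± 6.89 CPM (SD, n = 2 each). Its log2 fold change was -0.28 (SE 0.09, edgeR adjusted p = 0.0197), and the call was lost with the correction for GC content and length, without IP 2 and without input 4. Sf3a1 had 37.7 and 35.3 CPM in IP, against 50.7 and 44.9 CPM in input (log2 fold change -0.39, SE 0.12, edgeR adjusted p = 0.0105), and no longer passed without IP 4 or without input 2. Sf3b4, Sf3b5 and Sf3b6 had log2 fold changes of -0.21, 0.14 and 0.20 and did not pass.

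Among the 12 Prpf genes, which serve different steps, 4 were higher in IP (33.3%) and 2 lower (16.7%). Of all genes with at least 5 CPM, 34.3% were higher and 20.5% lower. The Prpf genes had a median of 0.18 that became -0.08 with library sizes alone. Prpf19, at chr19:10895231-10909559 on the plus strand, is the ubiquitin ligase at the centre of the Prp19 complex, and its promoter is printed above. It had 102 and 107 CPM in IP, against 47.4 and 43.0 CPM in input, the largest difference of any member. The means were 104 ± 3.67 CPM in the IP libraries and 45.2 ± 3.11 CPM in the input libraries (SD, n = 2 each), 2.30-fold apart (log2 fold change 1.20, SE 0.10, edgeR adjusted p = 3.37e-08). A near-identical stretch of 247 bases in a transcript of 1 other gene makes its level uncertain by the reads from that stretch.

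Prpf4b, a protein kinase of the pre-mRNA splicing machinery, had 143 and 156 CPM in IP, against 90.4 and 89.2 CPM in input (log2 fold change 0.73, SE 0.10, edgeR adjusted p = 5.59e-06). Prpf31, a U4/U6 protein whose human gene is mutated in retinitis pigmentosa, had 35.8 and 34.7 CPM in IP, against 22.5 and 25.002 CPM in input (log2 fold change 0.57, SE 0.13, edgeR adjusted p = 0.00109). Prpf38b was the fourth higher gene (0.36, edgeR adjusted p = 0.00861), a call lost with library sizes alone, with genes of at least 5 CPM only and without IP 4.

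Prpf39, the counterpart of a yeast protein of the U1 particle, was lower in IP. It had 9.55 and 10.3 CPM in IP, against 15.8 and 12.3 CPM in input (log2 fold change -0.50, SE 0.17, edgeR adjusted p = 0.0256), a call lost under 5 alternatives. Its value was -0.30 without input 2, -0.42 without IP 2, -0.26 with the correction for GC content and length and -0.48 with DESeq2. Prpf3, Prpf4, Prpf6, Prpf18, Prpf38a and Prpf40b had log2 fold changes between -0.22 and 0.22 and did not pass.

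SR proteins gave the most uniform picture. All 11 Srsf genes had negative log2 fold changes, 7 of them past the threshold (63.6%), and none was higher. Of all genes tested 22.4% were lower, and of those with at least 5 CPM 20.5%. The Srsf median was -0.51, and the summed level of these genes was 564 and 499 CPM in IP, against 784 and 705 CPM in input. The negative sign held in all 11 genes under every alternative, while the number past the threshold ran between 4 without input 2 and 11 with library sizes alone. In 9 of the 11 genes both IP libraries lay below both input libraries, as in 37.8% of all genes tested. In Srsf3 and Srsf5 the groups overlapped. Srsf11 (chr3:158010473-158036639, minus strand), an arginine-serine protein also known as p54, had 85.9 and 77.9 CPM in IP, against 169 and 154 CPM in input. The means were 81.9 ± 5.66 CPM in the IP libraries and 161 ± 10.8 CPM in the input libraries (SD, n = 2 each), 1.97-fold lower in IP (log2 fold change -0.98, SE 0.10, edgeR adjusted p = 2.69e-07).

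**Figure D3:**
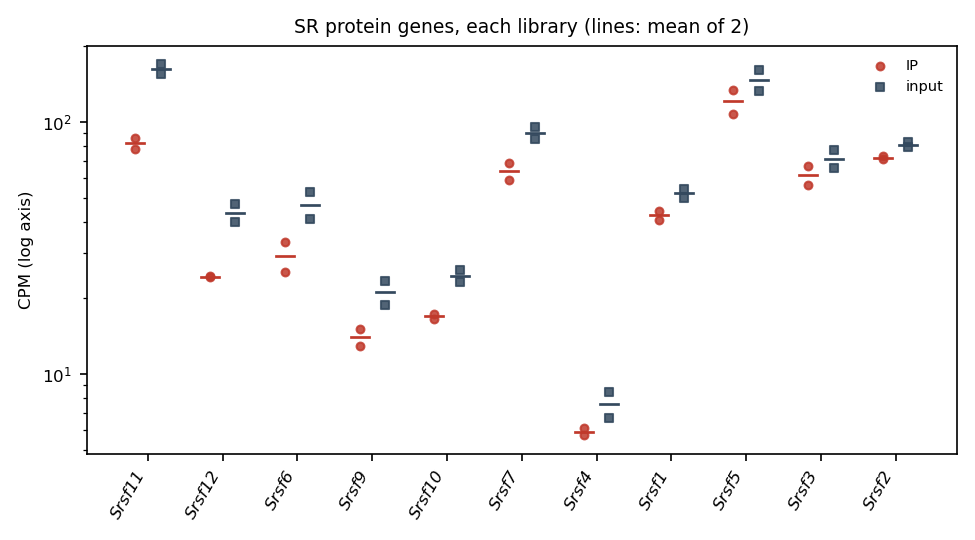
Level of each of the 11 Srsf genes in each library (vertical axis, CPM on a log axis), IP as red circles left of input as dark squares, with lines at the means of 2 libraries, genes ordered by log2 fold change. Srsf11 lies at 85.9 and 77.9 CPM in IP, against 169 and 154 CPM in input, and the IP mean is below the input mean in all 11 genes.

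Srsf12, an SR-like protein known to repress splicing, had 24.4 and 24.1 CPM in IP, against 39.8 and 47.0 CPM in input (log2 fold change -0.84, SE 0.13, edgeR adjusted p = 2.38e-05). Srsf6 had 33.4 and 25.3 CPM in IP, against 52.5 and 41.0 CPM in input, with a wide spread between replicates in both groups (log2 fold change -0.67, SE 0.15, edgeR adjusted p = 0.000901). Srsf7, a shuttling SR protein linked to mRNA export, had 68.5 and 58.6 CPM in IP, against 95.4 and 85.2 CPM in input (log2 fold change -0.51, edgeR adjusted p = 0.000872). These 3 genes were lower by more than the spread between replicates, and all 3 passed under every alternative.

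Srsf9 had 15.001 and 12.9 CPM in IP, against 23.3 and 18.8 CPM in input (log2 fold change -0.60, edgeR adjusted p = 0.00434). Srsf10 had 16.5 and 17.3 CPM in IP, against 25.9 and 23.1 CPM in input (log2 fold change -0.53, edgeR adjusted p = 0.00409). Neither passed without input 2. Srsf1, the first SR protein to be described, had 44.3 and 40.6 CPM in IP, against 54.2 and 49.6 CPM in input (log2 fold change -0.29, edgeR adjusted p = 0.0424), a call lost with DESeq2, with no filter on low counts and without IP 4, input 2 or input 4. Srsf2, Srsf3, Srsf4 and Srsf5 had log2 fold changes of -0.17, -0.22, -0.36 and -0.27 and did not pass. Srsf2 had 71.0 and 72.9 CPM in IP, against 79.2 and 83.0 CPM in input, a small gap in which the groups were still apart. Srsf5 was the SR gene with the highest level per kilobase of merged exons, 72.7 CPM per kb in IP and 87.9 CPM per kb in input.

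Of 20 Hnrnp genes, 9 were higher in IP (45%) and 0 lower, with a median of 0.26. Among all genes tested 23.4% were higher. Between 50 and 500 CPM 43.9% of genes were higher, with a median log2 fold change of 0.18. The median level of the Hnrnp genes was 88.0 CPM. With library sizes alone 4 Hnrnp genes were higher and 4 lower and the family median was -0.00197. Their summed level was 2757 and 2720 CPM in IP, against 2231 and 2128 CPM in input. Hnrnpa2b1 (chr6:51460932-51469894, minus strand), whose protein binds transport signals in dendritic mRNAs, had 379 and 403 CPM in IP, against 193 and 172 CPM in input. The means were 391 ± 17.2 CPM in the IP libraries and 182 ± 14.9 CPM in the input libraries (SD, n = 2 each), 2.15-fold apart (log2 fold change 1.10, SE 0.09, edgeR adjusted p = 2.89e-08).

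Hnrnpa0 had 347 and 310 CPM in IP, against 236 and 188 CPM in input (log2 fold change 0.63, SE 0.11, edgeR adjusted p = 8.87e-05). Hnrnpm, a splicing regulator that binds GU-rich RNA, had 75.2 and 78.9 CPM in IP, against 51.4 and 48.1 CPM in input (log2 fold change 0.63, SE 0.10, edgeR adjusted p = 7.03e-05). Hnrnpab, a relative of the A and B group proteins, had 182 and 186 CPM in IP, against 130 and 122 CPM in input (log2 fold change 0.55, edgeR adjusted p = 9.66e-05). These genes and Hnrnpa2b1 passed under every alternative, and the IP and input values did not overlap in any of them. Hnrnpa3, Hnrnph2, Hnrnpa1, Hnrnpul2 and Hnrnpr were higher by 0.51, 0.50, 0.43, 0.33 and 0.29 on the log2 scale, and all 5 lost the call with library sizes alone. Hnrnpr was at 0.19 and did not pass without input 4, nor did it pass without IP 2 or with genes of at least 5 CPM only.

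The 11 Hnrnp genes that did not pass had log2 fold changes between -0.15 and 0.35. Hnrnpc, which binds uridine tracts in introns, had 80.0 and 75.1 CPM in IP, against 88.2 and 84.3 CPM in input (-0.15, edgeR adjusted p = 0.224). Hnrnpu, also known as scaffold attachment factor A, had 191 and 214 CPM in IP, against 226 and 219 CPM in input (-0.13, edgeR adjusted p = 0.257). Hnrnpd, the AU-rich element binding protein AUF1, had 261 and 270 CPM in IP, against 266 and 279 CPM in input, with overlapping groups (-0.04, edgeR adjusted p = 0.767). Hnrnpk had 102 and 96.6 CPM in IP, against 90.9 and 87.1 CPM in input (0.16, edgeR adjusted p = 0.198). Near-identical transcripts of other genes were found for 8 Hnrnp genes, among them Hnrnpa1, Hnrnpa3, Hnrnph2, Hnrnpr and Hnrnpk, whose values are uncertain to that extent.

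Of the 21 genes of the families that direct splicing in neurons, 7 differed past the threshold, beside 45.8% of all genes tested. The 4 higher in IP were 19.0% of the 21, beside 23.4% of all genes, and the 3 lower were 14.3%, beside 22.4%. The 21 genes had a median level of 178 CPM. Between 50 and 500 CPM, 64.9% of all genes passed in either direction, 43.9% as higher and 21.0% as lower. The median log2 fold change of the 21 was -0.02. Of 63 Snrp, Sf3, Prpf, Srsf and Hnrnp genes, 21 were higher (33.3%) and 11 lower (17.5%), with a median of 0.17. Of all genes with at least 5 CPM, 34.3% were higher and 20.5% lower. Per kilobase of merged exons, Celf4 was the most abundant of the 21 (316 CPM per kb in IP and 270 in input), followed by Rbfox1 (171 and 148), Celf2 (89.4 and 93.7), Rbfox3 (83.7 and 74.2) and Mbnl2 (78.4 and 91.1). The order of Celf2, Rbfox3 and Mbnl2 differed between IP and input. Mbnl3 was the least abundant (0.0668 CPM per kb in IP and 0.121 in input), below Celf6 (3.77 and 3.20) and Ptbp1 (5.22 and 5.96).

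**Figure D4:**
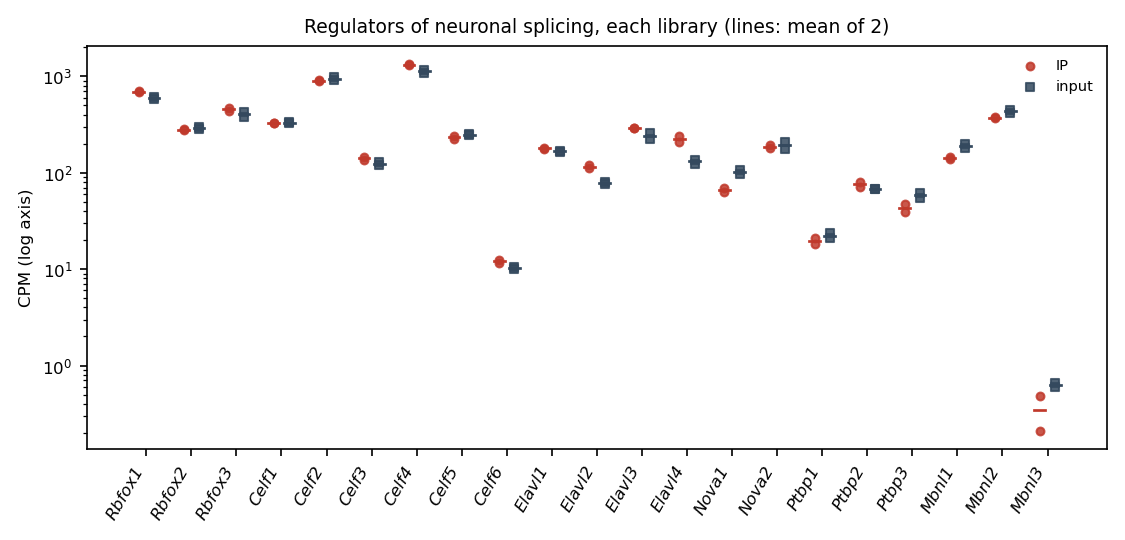
Level of the 21 Rbfox, Celf, Elavl, Nova, Ptbp and Mbnl genes in each library (vertical axis, CPM on a log axis), IP as red circles left of input as dark squares, with lines at the means of 2 libraries. Elavl2 and Elavl4 stand higher in IP and Nova1, Ptbp3 and Mbnl1 lower, while Rbfox and Celf genes lie close to their input values.

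Rbfox proteins bind GCAUG and promote or repress exons by where they bind, and Rbfox3 is the neuronal marker NeuN. None of the 3 genes passed the test. With library sizes alone all 3 had negative log2 fold changes, and with the correction for GC content and length their median was -0.04. Rbfox1 had 680 and 703 CPM in IP, against 585 and 611 CPM in input, with both IP libraries above input and an edgeR adjusted p of 0.0507 (log2 fold change 0.21, SE 0.08), and it passed with DESeq2, with no filter on low counts and without IP 2. Rbfox2, which is also made outside neurons, had 276 and 282 CPM in IP, against 286 and 298 CPM in input (-0.06, SE 0.09, edgeR adjusted p = 0.585). Rbfox3 had 468 and 441 CPM in IP, against 382 and 423 CPM in input (0.17, SE 0.09, edgeR adjusted p = 0.124).

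Celf proteins bind GU-rich elements in introns and 3′ ends. Celf4, strong in excitatory neurons in mouse, had 1297 and 1346 CPM in IP, against 1090 and 1168 CPM in input, means of 1321 ± 34.7 CPM and 1129 ± 55.4 CPM (SD, n = 2 each). It was the only Celf gene to pass (log2 fold change 0.23, SE 0.08, edgeR adjusted p = 0.033), and the call was lost under 4 alternatives, with a value of -0.03 under library sizes alone. Celf1 had 325 and 325 CPM in IP, against 326 and 335 CPM in input (-0.02, edgeR adjusted p = 0.853). Celf2 had 884 and 915 CPM in IP, against 910 and 977 CPM in input, with overlapping groups (-0.07, edgeR adjusted p = 0.534). With the correction for GC content and length, Celf2 was at 0.19 (edgeR adjusted p = 0.0413), so its direction depended on that setting. Celf3, Celf5 and Celf6 had log2 fold changes of 0.19, -0.09 and 0.24 and did not pass. Celf5 passed as lower with library sizes alone (-0.35), with genes of at least 5 CPM only (-0.21) and with the correction for GC content and length (-0.26).

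Elavl genes, the mouse counterparts of fly elav, encode Hu proteins that bind AU- and U-rich RNA. Elavl2, Elavl3 and Elavl4 are largely neuronal, whereas Elavl1 (HuR) is made in nearly all cells. All 4 had both IP libraries above both input libraries, beside 35.3% of all genes tested, and 3 passed, beside 23.4% of all genes that were higher. Between 50 and 500 CPM, the range of all 4 Elavl genes, 43.9% of genes were higher. Elavl4 (HuD, chr4:110203722-110351909, minus strand) had 242 and 206 CPM in IP, against 124 and 137 CPM in input, means of 224 ± 25.5 CPM and 131 ± 8.86 CPM (SD, n = 2 each), 1.72-fold apart (log2 fold change 0.78, SE 0.10, edgeR adjusted p = 4.91e-06). Elavl2 (HuB) had 119 and 112 CPM in IP, against 81.0 and 77.1 CPM in input (0.55, SE 0.10, edgeR adjusted p = 0.000148). Both passed under every alternative. Elavl3 (HuC) had 294 and 289 CPM in IP, against 225 and 261 CPM in input (0.26, SE 0.09, edgeR adjusted p = 0.0298), a call lost under 5 alternatives. Its value was 0.16 without input 2, 0.14 with genes of at least 5 CPM only and with the correction for GC content and length, and 0.0041 with library sizes alone. Elavl1 had 182 and 176 CPM in IP, against 169 and 163 CPM in input (0.11, SE 0.09, edgeR adjusted p = 0.356). With the correction for GC content and length, Elavl1 was at 0.22 and passed (edgeR adjusted p = 0.0471), where Elavl3 was at 0.14 and did not. The difference in log2 fold change between Elavl1 and its neuronal relatives was not tested.

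The Nova paralogues bind clusters of YCAY and regulate synaptic exons. Nova1 (chr12:46694517-46818929, minus strand) had 70.1 and 63.0 CPM in IP, against 96.4 and 106 CPM in input, means of 66.6 ± 5.05 CPM and 101 ± 6.67 CPM (SD, n = 2 each). It was lower in IP under every alternative (log2 fold change -0.60, SE 0.10, edgeR adjusted p = 0.000106). Nova2, the main Nova gene of mouse neocortex, had 195 and 179 CPM in IP, against 177 and 207 CPM in input, with overlapping groups (-0.04, edgeR adjusted p = 0.786). Per kilobase of exons Nova2 exceeded Nova1 in IP (22.3 and 8.66 CPM per kb) and in input (22.9 and 13.2 CPM per kb).

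Ptbp proteins bind CU-rich tracts, and Ptbp2 replaces Ptbp1 as neurons form. Ptbp1 had 18.1 and 21.0 CPM in IP, against 21.2 and 23.4 CPM in input (-0.19, edgeR adjusted p = 0.288), and Ptbp2 had 71.1 and 80.5 CPM in IP, against 68.5 and 67.1 CPM in input (0.16, edgeR adjusted p = 0.219). Neither passed in the main fit. With the correction for GC content and length both did, Ptbp1 at -0.39 (edgeR adjusted p = 0.0248) and Ptbp2 at 0.28 (edgeR adjusted p = 0.0242). Ptbp1 also passed as lower with library sizes alone (-0.45). Per kilobase Ptbp2 was above Ptbp1 in IP (15.4 and 5.22 CPM per kb) and in input (13.8 and 5.96 CPM per kb). Ptbp3 had 39.2 and 47.3 CPM in IP, against 54.2 and 62.0 CPM in input (log2 fold change -0.43, SE 0.12, edgeR adjusted p = 0.00713). The call was lost with the correction for GC content and length, without input 4 and without IP 2, where the value was -0.28.

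Muscleblind proteins switch exons between fetal and adult forms, and CUG repeats sequester them in myotonic dystrophy in humans. Of the 3 Mbnl genes, 1 was lower in IP and 0 were higher. Mbnl1 had 139 and 145 CPM in IP, against 179 and 196 CPM in input (log2 fold change -0.40, SE 0.09, edgeR adjusted p = 0.00203), but did not pass with the correction for GC content and length. Mbnl2, the main paralogue of brain, had 378 and 366 CPM in IP, against 416 and 448 CPM in input, with the groups apart and an edgeR adjusted p of 0.0508 (-0.22). Mbnl2 passed with genes of at least 5 CPM only (-0.34) and with library sizes alone (-0.48). Mbnl3 had 0.211 and 0.486 CPM in IP, against 0.660 and 0.601 CPM in input, and did not pass (-0.84, SE 0.68, edgeR adjusted p = 0.333).

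Properties of the genes that the name pattern did not use were then set beside the values. An annotated NMD transcript is present in 9 of 11 Srsf genes (81.8%), in 37 of 84 members (44.0%) and in 27.3% of 14295 protein-coding genes tested. The median log2 fold change was -0.04 in the 37 members with such a transcript (9 higher, 9 lower) and 0.20 in the 47 without (16 higher, 5 lower). Outside the Srsf family the medians were 0.16 (9 higher, 4 lower of 28) and 0.20 (16 higher, 3 lower of 45), so most of the gap lay with the Srsf genes. Across all protein-coding genes tested the medians were 0.07 with and 0.06 without an NMD transcript. Over the 84 members, which share libraries and are not independent, Spearman's rho of the log2 fold change was 0.27 with GC content, 0.07 with the number of exons, -0.12 with transcript length and 0.10 with mean CPM, and the rho with GC content over all protein-coding genes was 0.15. Srsf and Snrp genes are short, with median coding lengths of 786 and 378 bases, against 1248 bases in all members.

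Counting limits some of these values. In all, 21 members have a near-identical transcript of another gene, and 35 have exons that overlap exons of another gene, 29 of them on the opposite strand. The strand setting of the counting is not given in the sources used here, so reads of a member and its antisense partner cannot be told apart. Among the members named above with such an overlap are Celf2, Celf3, Celf5, Elavl1, Elavl3, Hnrnpab, Hnrnpm, Mbnl2, Nova1, Nova2, Prpf31, Prpf39, Prpf4b, Ptbp1, Ptbp3, Sf3a2, Sf3b2, Sf3b3, Snrpa and Srsf1. Prpf19, Hnrnpa2b1, Srsf11, Srsf12, Srsf6, Srsf7, Elavl2 and Elavl4 have no annotated overlap.

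Splicing also needs many proteins outside the name pattern, and 154 of them were listed by role, 150 of which were tested. Of these, 39 were higher in IP (26.0%, beside 23.4% of all genes) and 38 lower (25.3%, beside 22.4%), with a median of 0.10. At least 2-fold differences past the threshold were seen in 3 higher and 10 lower of the 150, beside 14.4% of all genes. Under TMM scaling, all 10 branch point and 3′ splice site factors had positive log2 fold changes, 6 of them past the threshold (median 0.39). With library sizes alone, 19 of the 150 genes were higher and 52 lower, and the median of all genes tested shifted by -0.26. The single lists were not recomputed in this way, so their counts and medians here and below are with TMM scaling. Of 21 Prp19 complex and step factors 10 were higher (47.6%) and 0 lower (median 0.23). Of 10 exon junction complex genes 4 were higher (40%) and 0 lower (median 0.28). Among all genes with at least 5 CPM, 34.3% were higher and 20.5% lower. Of 19 U4/U6, minor spliceosome and LSm genes 4 were higher and 3 lower (median 0.26), and of 10 U1 and U5 genes 3 were higher and 2 lower (median 0.09).

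**Figure D5:**
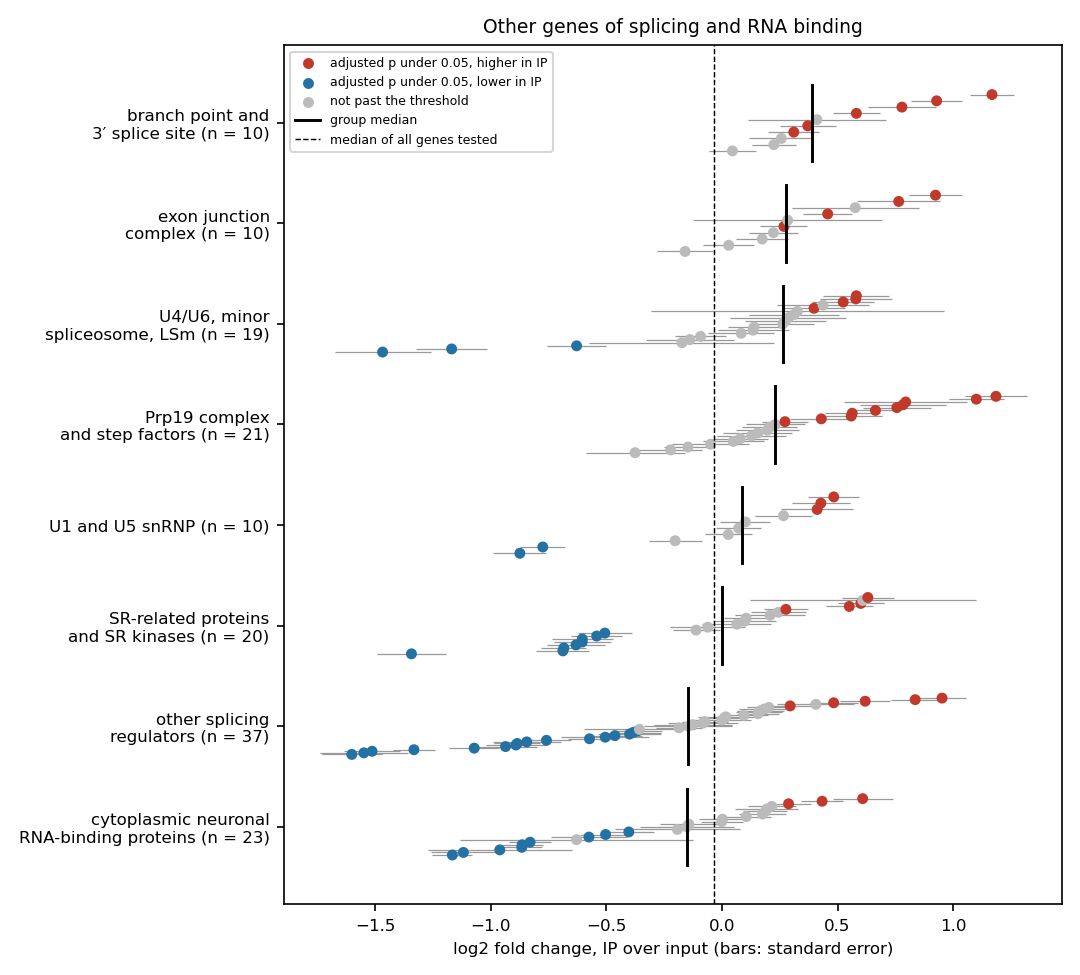
Log2 fold change of IP over input (horizontal axis) for 150 other genes of splicing and RNA binding, by list, with bars for the standard error, colour for the edgeR call, a black line at the list median and a dashed line at the median of all genes tested. Under TMM scaling the list medians run between 0.39 for branch point and 3′ splice site factors and -0.15 for other splicing regulators and for cytoplasmic neuronal RNA-binding proteins.

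Lists of regulators held more genes that were lower than higher under TMM scaling. Of 20 SR-related proteins and SR kinases 4 were higher (20%) and 8 lower (40%, median 0.00). Of 37 other splicing regulators 5 were higher (13.5%) and 16 lower (43.2%, median -0.15). Of 23 cytoplasmic neuronal RNA-binding proteins 3 were higher (13.0%) and 9 lower (39.1%, median -0.15). Among all genes tested 23.4% were higher and 22.4% lower, and among those with at least 5 CPM 34.3% and 20.5%. The most positive differences were in Xab2, a Prp19-associated protein known as Syf1 in yeast, and in the helicases Ddx46 and Dhx8. Xab2 had 35.1 and 37.7 CPM in IP, against 16.9 and 15.1 CPM in input (log2 fold change 1.19, SE 0.13, edgeR adjusted p = 8.19e-07). Ddx46, the helicase that helps the U2 particle onto the branch point, had 188 and 193 CPM in IP, against 82.1 and 87.6 CPM in input (1.17, SE 0.10, edgeR adjusted p = 1.67e-08). Dhx8, which releases the spliced mRNA, had 51.4 and 49.3 CPM in IP, against 24.1 and 22.9 CPM in input (1.10, SE 0.12, edgeR adjusted p = 4.97e-07). They were followed by Ilf2, a double-stranded RNA-binding partner protein, Puf60, a 3′ splice site factor, and Eif4a3, the helicase core of the exon junction complex, with log2 fold changes of 0.95, 0.93 and 0.92.

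The most negative differences were larger than those of any member. Rbms3 had 13.9 and 13.6 CPM in IP, against 40.3 and 43.3 CPM in input (log2 fold change -1.60, SE 0.13, edgeR adjusted p = 1.51e-08), and its relative Rbms2 had 4.45 and 6.15 CPM in IP, against 15.2 and 15.97 CPM in input (-1.55, SE 0.19, edgeR adjusted p = 2.65e-06). All IP values of these genes lay below all input values. Rnpc3, a protein of the minor spliceosome, had 3.47 and 3.98 CPM in IP, against 10.5 and 10.1 CPM in input (-1.47, edgeR adjusted p = 1.25e-05). Clk1, a kinase that phosphorylates SR proteins, had 10.3 and 11.5 CPM in IP, against 29.7 and 25.6 CPM in input (-1.34, edgeR adjusted p = 7.04e-07). Qk, a regulator known for its role in oligodendrocytes and astrocytes, had 153 and 168 CPM in IP, against 406 and 402 CPM in input (-1.33, edgeR adjusted p = 1.94e-09). Oligodendrocyte markers were in sum also lower in IP, and astrocyte markers differed in both directions, as given above, and their part in the value of Qk was not tested. Each of these 11 genes passed in the same direction under every alternative. Near-identical transcripts of other genes were found for Eif4a3, and exons of another gene overlap Xab2, Ilf2 and Rnpc3.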

How the data were processed

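Per the submitters' processing notes, the authors used STAR 2.0.0e, HTSeq and the mm10 build, and they deposited raw counts of reads for each gene. Which annotation, strand setting and kit they used is not given in the sources used here. Summary lines, which name no gene, entered neither the library sizes nor the tests: reads outside features were 7.31% and 7.54% of records in IP and 14.9% and 13.5% in input, reads without a unique alignment 37.0% and 38.0% in IP and 32.1% and 30.7% in input, and ambiguous reads 1.54% and 1.54% in IP and 5.07% and 5.09% in input.

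IP was compared with input in edgeR 4.0.16 (R 4.3.3) (TMM factors 0.919 and 0.909 in IP and 1.10 and 1.09 in input; filterByExpr with a minimum count of 10 and minimum total of 15; quasi-likelihood test, two-sided, Benjamini-Hochberg threshold 0.05). Of 21923 genes with a count, 16600 were tested, with 2 residual and 16.8 prior degrees of freedom and a biological coefficient of variation of 12.5%. A count of 3 corresponds to 0.0660 to 0.0790 CPM. Counts of replicates differed by a chi-square of 21.2 per degree of freedom in IP and 14.5 in input. The method was tested on simulated data.

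The members, the lists of other genes and the markers were chosen with earlier results of these data known. Named genes were every member of the 6 neuronal families, the 3 highest and 3 lowest log2 fold changes among called members (mean of at least 5 CPM) of each other family, and the 6 highest and 6 lowest among the other listed genes; other members with printed values were chosen after these were seen, and some genes that the rule takes have no values reported here. Coordinates, lengths, overlaps and transcript types came from GENCODE vM21 (GRCm38), with all 84 members matched by symbol, promoters from RefSeq (GRCm38.p6), and near-identical transcripts from blastn 2.17.0. The counts over all genes, members, families and all other listed genes together, the members' median and the single members and named genes were recomputed with DESeq2 1.42.0, and in edgeR with the size factors of DESeq2, with library sizes alone, without a filter, with genes of at least 5 CPM only, with an offset for GC content and transcript length, with a replicate block with and without that offset, and without each library in turn.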

Additional observations from a re-analysis of the deposited data

How the results depend on the processing

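Over all genes tested, 3886 were higher in IP and 3719 lower. With library sizes alone these counts were 2151 and 5910, and 13 members were higher, 31 lower, with a median log2 fold change of -0.11, and 19 of the other listed genes were higher, against 39 with TMM. With genes of at least 5 CPM only, 16 members were higher and 22 lower, with a median of 0.036. Without input 2 the number of lower members was 9, and without input 4 the members' median was 0.089. Leaving out each library gave 3323 to 3720 genes higher and 2670 to 3421 lower, 22 to 24 members higher and 9 to 13 lower, medians of 0.089 to 0.162, and 31 to 37 of the other listed genes higher and 34 to 37 lower; where 1 library of a group was left, its spread was taken from the other group. Celf2 turned to 0.19 with the GC and length offset and to 0.19 (edgeR adjusted p = 0.0225) with the replicate block and that offset, and Celf4 to -0.032 with library sizes alone; the cause was not tested. The replicate block gave 28 members higher and 17 lower, 29 and 17 with the GC and length offset. Deviations of same-numbered libraries correlated at 0.19 over 10681 genes, but the labels do not say that a number marks 1 animal and there are 2 pairs, so no pairing is claimed; the block lost 0 of the members' calls and gained 6 (Hnrnpul1, Mbnl2, Rbfox1, Snrpd2, Srsf3 and Srsf5). The 5 members under 5 CPM did not pass, and their log2 fold changes had standard errors of 0.25 to 0.68.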

Other observations

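Some of the other listed genes lie outside the rule for named genes and were chosen after their values were seen. Their values here are with TMM scaling. Genes that work with SR proteins or the U1 particle differed in both directions, and those given first are ones that were lower in IP. Snrnp70, the U1 protein that SR proteins contact, had 36.6 and 37.9 CPM in IP, against 73.8 and 62.8 CPM in input (log2 fold change -0.87, edgeR adjusted p = 5.15e-06). Luc7l2, a U1-associated protein, had 94.7 and 104 CPM in IP, against 176 and 164 CPM in input (-0.78, edgeR adjusted p = 3.34e-06). Son, a large arginine-serine protein of nuclear speckles, had 94.98 and 103 CPM in IP, against 154 and 164 CPM in input (-0.68, edgeR adjusted p = 1.29e-05). Srek1, Clk4 and Clk1 were also lower. Scaf1, Scaf11 and Srrm2 were higher, Luc7l and Luc7l3 did not pass, and the SR protein kinase Srpk1 was higher, at 117 and 107 CPM in IP, against 73.6 and 74.7 CPM in input (0.60, edgeR adjusted p = 6.83e-05). Exons of other genes overlap Luc7l2, Son and Clk4.

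Among cytoplasmic RNA-binding proteins of neurons, known for mRNA transport and translational control, Purb, Pum2, Stau2 and Cpeb4 were lower in IP with no overlap between groups. Both IP libraries lay below both input libraries in 37.8% of all genes tested. Purb had 436 and 406 CPM in IP, against 954 and 935 CPM in input (-1.17, edgeR adjusted p = 4.80e-09), and its exons overlap other genes. Stau2, a Staufen protein of dendritic RNA granules, had 228 and 220 CPM in IP, against 401 and 414 CPM in input (-0.86, edgeR adjusted p = 2.71e-07). The stress granule protein G3bp1 was higher, at 30.6 and 29.3 CPM in IP, against 19.7 and 19.5 CPM in input (0.61, edgeR adjusted p = 0.000806).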
